A study of Mus musculus with 2 samples.

Results

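The core circadian clock loop of mouse liver was read from 10 genes: Arntl, Npas2, Clock, Per1, Per2, Per3, Cry1, Cry2, Nr1d1 and Nr1d2. A probe set, the group of short probes that an Affymetrix array uses to read a transcript, was taken as a member when its only gene symbol in the platform annotation was one of these 10, whatever its intensity. The rule found 23 probe sets among 34945 with a single symbol, and every one of the 10 genes had at least 1. Liver RNA of Bglu3 congenic mice and of C57BL/6 apoE-/- control mice was hybridised to 1 array each. Bglu3 is a blood glucose locus of chromosome 1, carried in these mice as a donor segment on a C57BL/6 background.

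Both groups were weaned to chow at 3 weeks of age, received a Western diet from 6 weeks for 12 weeks, which places the end of the diet at 18 weeks, and are labelled hyperglycemic. Control mice lack apoE, the ligand by which lipoprotein remnants are cleared. The labels do not state the apoE genotype of the congenic mice, the donor strain, the ends of the segment, the sex, how many animals stand behind an array, or the hour at which livers were taken. With 1 array in each group there was no replicate, so the values below have no error and no test, and they describe these 2 arrays.

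The clock is a transcriptional feedback loop that runs in nearly every cell, liver cells included. BMAL1, the product of Arntl, pairs with CLOCK or its paralog NPAS2 and activates genes with E-boxes in their regulatory DNA, among them the Per, Cry and Nr1d genes. PER and CRY proteins return to the nucleus and inhibit that pair. REV-ERB alpha and beta, the products of Nr1d1 and Nr1d2, repress Arntl and Npas2 through response elements shared with ROR activators, and PAR-domain factors such as DBP act at D-boxes. In liver, transcripts of Arntl and Npas2 are known to cycle roughly opposite in phase to those of the Rev-erb and Period genes, so the measured level of each depends on the hour.

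The reference promoters of 6 members held the letters of at least 1 element known from the clock, and those of 5 are printed. The elements were an E-box or the related CACGTT, a D-box, and a REV-ERB and ROR response element. RefSeq promoters of assembly GRCm38.p6, 250 bases before to 50 bases after a transcript start, were found for 9 of the 10 genes in 13 windows, and none was matched for Per2. They are C57BL/6J reference sequence and not that of the donor segment. Both strands were searched for the E-box CACGTG, the related CACGTT, the D-box TTATGNAA and the response element core TAGGTCA, and matches are in capitals. Each line runs 5' to 3' on the strand of its gene. The windows are chr7:113207261-113207560, plus strand for Arntl, chr11:69098699-69098998, plus strand for Per1, chr4:151044616-151044915, minus strand for Per3, chr10:85185005-85185304, minus strand for Cry1 and chr11:98775328-98775627, minus strand for Nr1d1.
Arntl: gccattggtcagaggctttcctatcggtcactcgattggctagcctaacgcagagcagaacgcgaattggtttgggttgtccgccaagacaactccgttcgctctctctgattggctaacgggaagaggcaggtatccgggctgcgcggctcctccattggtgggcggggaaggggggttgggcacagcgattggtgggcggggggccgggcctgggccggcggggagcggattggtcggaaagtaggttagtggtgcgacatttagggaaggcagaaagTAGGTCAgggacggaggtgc
Per1: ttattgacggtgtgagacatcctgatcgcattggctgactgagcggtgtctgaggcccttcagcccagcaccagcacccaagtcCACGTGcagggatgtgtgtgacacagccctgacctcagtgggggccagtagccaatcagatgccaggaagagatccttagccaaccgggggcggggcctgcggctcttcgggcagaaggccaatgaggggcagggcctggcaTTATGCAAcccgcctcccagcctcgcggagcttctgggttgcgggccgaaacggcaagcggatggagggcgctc
Per3: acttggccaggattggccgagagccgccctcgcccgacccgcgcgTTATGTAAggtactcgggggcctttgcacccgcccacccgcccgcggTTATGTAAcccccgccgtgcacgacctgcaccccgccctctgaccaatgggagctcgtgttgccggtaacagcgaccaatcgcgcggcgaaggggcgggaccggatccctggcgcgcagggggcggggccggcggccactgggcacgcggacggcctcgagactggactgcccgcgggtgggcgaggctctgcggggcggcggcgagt
Cry1: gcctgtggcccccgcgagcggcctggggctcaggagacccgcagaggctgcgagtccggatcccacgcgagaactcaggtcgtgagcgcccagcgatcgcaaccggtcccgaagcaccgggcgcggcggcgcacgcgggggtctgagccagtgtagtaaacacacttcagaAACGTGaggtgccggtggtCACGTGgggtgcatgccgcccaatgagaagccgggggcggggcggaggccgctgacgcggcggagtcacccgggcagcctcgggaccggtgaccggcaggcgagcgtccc
Nr1d1: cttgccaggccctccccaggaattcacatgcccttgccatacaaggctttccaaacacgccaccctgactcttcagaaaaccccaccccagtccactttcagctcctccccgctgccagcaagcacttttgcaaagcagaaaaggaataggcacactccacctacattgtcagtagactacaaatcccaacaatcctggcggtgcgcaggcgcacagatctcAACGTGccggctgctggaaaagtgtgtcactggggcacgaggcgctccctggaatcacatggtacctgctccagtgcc

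The printed Arntl window holds 1 TAGGTCA, at bases 281 to 287 of 300. Per1 holds a CACGTG at base 85 and a TTATGCAA at base 227, Per3 holds TTATGTAA at bases 46 and 93, Cry1 holds AACGTG at base 172 and CACGTG at base 191, and Nr1d1 holds AACGTG at base 223, where AACGTG is the reverse complement of CACGTT. The Cry2 window, not printed, also holds an AACGTG, at base 85. No 2 matches overlapped. Arntl and Per1 each had another window, not printed, that held no match. The windows of Npas2, Clock and Nr1d2 held none of these letters, and sites outside 300 bases or with other letters were not searched for. Among all 32851 promoter windows of this length, CACGTG was found in 7.15%, CACGTT in 4.68%, TTATGNAA in 3.38% and TAGGTCA in 2.61%, so a match describes the letters and not a bound site.

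Compared by the brightest probe set of each gene, the activators were higher and the repressors lower on the congenic array. Arntl, Npas2 and Clock (3 of 3) were higher and the 3 Period, 2 Cryptochrome and 2 Rev-erb genes (7 of 7) were lower, counted at any size. The direction of 2 of them depended on this choice of probe set: as the median over all its probe sets Npas2 came to -0.09 and Per3 to 0.13, and as the mean over its expressed ones Per3 came to 0.02. Most of these differences were small, and 3 of the 10 genes passed 1.5-fold: Arntl and Npas2 on the higher side and Per2 on the lower side. Differences are log2(intensity + 5) of the congenic minus the control array, so 1.5-fold is 0.58, and the added 5 understates differences of dim probe sets. The median difference was -0.28 for the 7 repressors and -0.15 for all 10 genes, against 0.04 for all 12614 expressed genes. A gene was called expressed when its brightest probe set reached the 50th percentile of at least 1 array, and all 10 members passed. Among all expressed genes, 7.47% were higher and 5.23% lower by 1.5-fold or more, and 56.1% were higher at any size. Members were higher in 2 of 10 and lower in 1 of 10 by the same rule. Npas2 reached the 50th percentile only on the congenic array, where it was high. With expression required on both arrays 1 of 9 was higher and 1 lower, against 5.68% and 3.3% of all such genes.

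**Figure D1:**
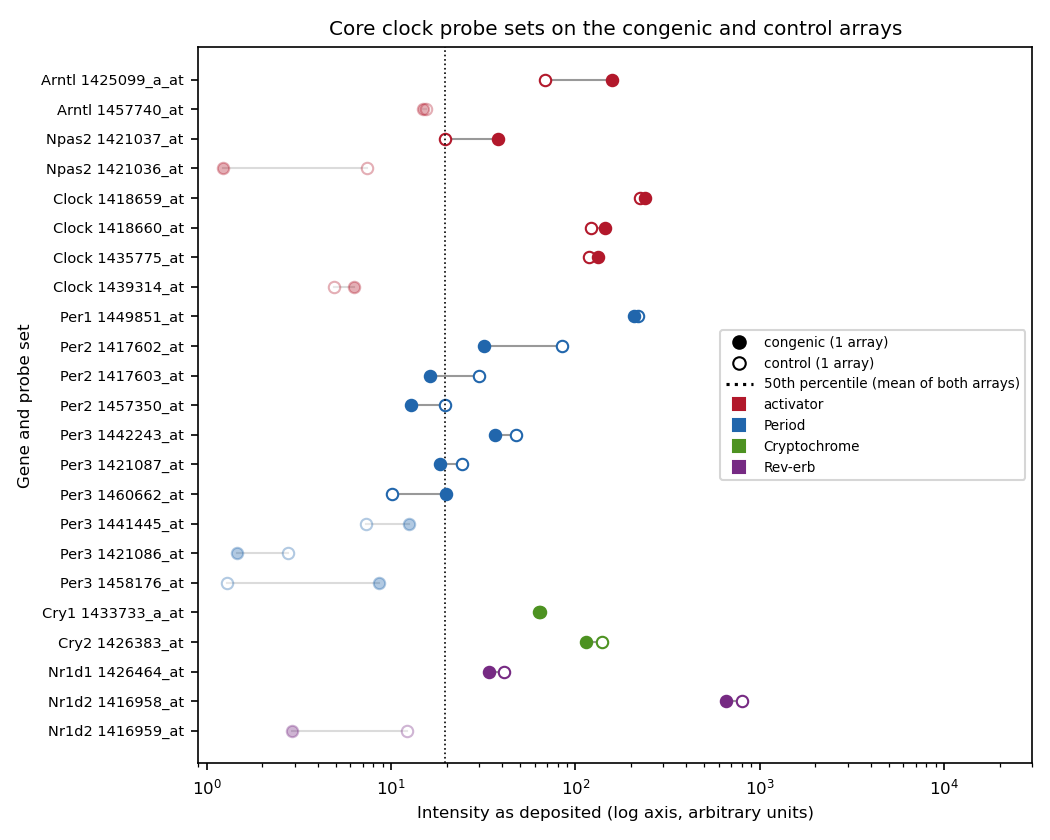
Deposited intensity (log axis, arbitrary units) of each of the 23 core clock probe sets in congenic (filled) and control (open) liver, coloured by role. Pale pairs lay below the 50th percentile on both arrays. Arntl 1425099_a_at stood at 157 against 68.6 and Per2 1417602_at at 31.9 against 84.6.

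Arntl encodes BMAL1, the partner without which the activator complex does not form. Its brighter probe set, 1425099_a_at, had an intensity of 157 in congenic and 68.6 in control liver, a log2 difference of 1.14. That probe set carries the suffix _a_at, which marks a design that reads several transcripts of the gene. The congenic value was the higher one, and Arntl ranked 161st from the top among 12614 expressed genes. The dimmer probe set, 1457740_at, read 14.8 against 15.5, a difference of -0.05, and lay below the 50th percentile on both arrays. So only 1 of the 2 Arntl probe sets showed the higher value, and the other was too dim on both arrays to be called expressed.

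Npas2 encodes a paralog of CLOCK that can replace it as the partner of BMAL1. Its brighter probe set, 1421037_at, read 37.9 in congenic and 19.6 in control liver, a difference of 0.81, with the control value just under the 50th percentile of that array (19.7). The other, 1421036_at, went the opposite way at 1.23 against 7.4 (-0.99), in a range of intensity where exactly 1 recurs as a low value. The Npas2 probe sets therefore disagreed in direction. Clock itself differed little, and its 4 probe sets pointed the same way. The brightest, 1418659_at, read 239 against 223 (0.09), 1418660_at read 145 against 121 (0.26), 1435775_at read 133 against 118 (0.16), and the dim 1439314_at read 6.28 against 4.88 (0.19). All 4 Clock values were higher on the congenic array and none reached 1.5-fold.

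Per2, a Period repressor that is also induced directly by glucocorticoids, had the lowest difference of the 10 genes. Its probe set 1417602_at read 31.9 in congenic and 84.6 in control liver (-1.28), which placed Per2 82nd from the bottom of 12614 expressed genes. Probe set 1417603_at read 16.3 against 29.9 (-0.71) and 1457350_at read 12.9 against 19.7 (-0.47). All 3 Per2 probe sets were lower on the congenic array, 2 of them by more than 1.5-fold. The 2 dimmer ones reached the 50th percentile only on the control array, where they were high, and 1457350_at only just.

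Per1, the Period gene that responds fastest to resetting signals, had a single probe set, 1449851_at, at 207 against 218 (-0.07). The 2 arrays were thus nearly level for Per1 while they differed for Per2. Per3, a Period gene that is not needed for the rhythm itself, gave no common direction. Its brightest probe set, 1442243_at, read 36.6 against 47.7 (-0.34), and 1421087_at read 18.3 against 24.2 (-0.32). Probe set 1460662_at read 19.8 against 10.1 (0.72), and the 3 that were dim on both arrays read 12.6 against 7.26 (0.52), 1.46 against 2.75 (-0.26) and 8.64 against 1.29 (1.12). Of the 6 Per3 probe sets 3 were higher and 3 lower, and the 2 past 1.5-fold were both on the higher side, opposite to the brightest.

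**Figure D2:**
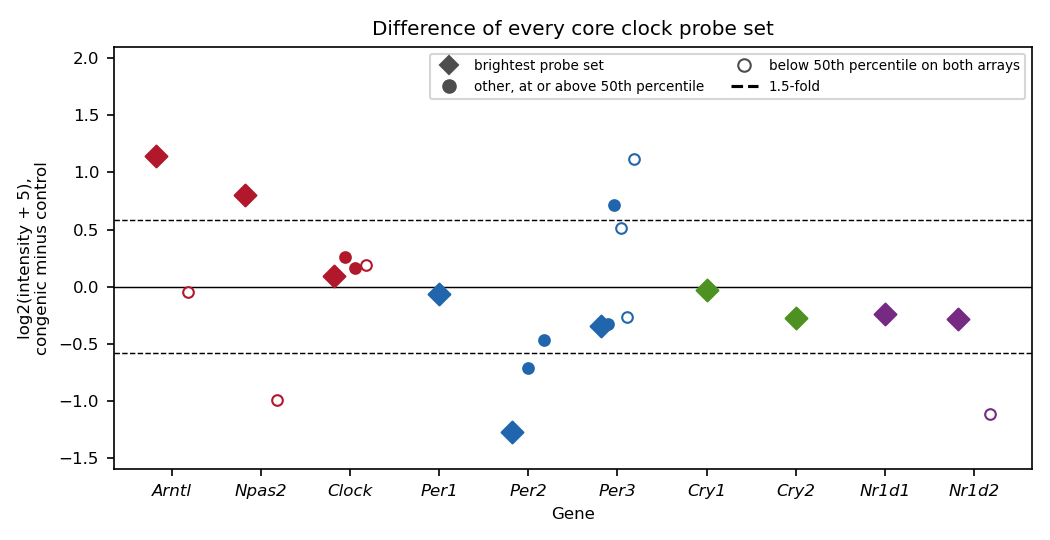
Difference of log2(intensity + 5), congenic minus control, for every core clock probe set by gene, with the brightest probe set of each gene as a diamond and dim ones open. Dashed lines mark 1.5-fold. All 4 Clock probe sets lie above 0 and all 3 Per2 probe sets below it, while those of Arntl, Npas2 and Per3 lie on both sides.

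Cry1 and Cry2 encode the cryptochromes, which carry most of the repression of the activator pair. Cry1, read by 1433733_a_at alone, stood at 63.2 against 64.5 (-0.03). Cry2, read by 1426383_at alone, stood at 114 against 139 (-0.28). Cry1 was close to level and Cry2 somewhat lower on the congenic array, and neither passed 1.5-fold.

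Nr1d1 and Nr1d2 encode the heme-binding nuclear receptors REV-ERB alpha and beta. Nr1d1 had 1 probe set, 1426464_at, at 34.1 against 41.1 (-0.24). Nr1d2 was read by 1416958_at at 657 against 803 (-0.29), and its dim probe set 1416959_at read 2.9 against 12.1 (-1.12). The 3 Rev-erb probe sets were all lower on the congenic array, and the one past 1.5-fold was below the 50th percentile on both arrays.

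Counted over probe sets at any size, 6 of 8 of the activators were higher and 12 of 15 of the repressors lower, together 9 higher and 14 lower. Of all probe sets with 1 symbol, 50.8% were higher at any size. Probe sets of the same gene are not separate observations, and all 4 of Clock are among the 6. Past 1.5-fold the 23 probe sets were evenly split. Of them, 4 were higher (17.4%) and 4 lower (17.4%) by 1.5-fold or more, against 8.86% and 9.1% of all probe sets with 1 symbol. Of the 16 expressed on at least 1 array, 3 were higher and 2 lower, against 7.22% and 6.05% of all such probe sets, but 3 of these 5 (Npas2 1421037_at, Per3 1460662_at and Per2 1417603_at) reached the 50th percentile only on the array where they were high. Of the 11 expressed on both arrays, 1 was higher and 1 lower. The share over all such probe sets was not computed, so this count has no background of its own. Counted by gene under the same requirement, the shares over all genes were 5.68% higher and 3.3% lower. The other 3 of the 8 belonged to the 7 dim probe sets, a class in which 25% of all probe sets passed 1.5-fold in either direction. At 2-fold, 2 probe sets were higher (Arntl 1425099_a_at and the dim Per3 1458176_at) and 2 lower (Per2 1417602_at and the dim Nr1d2 1416959_at), against a background of 2.13% and 2.26%. As a measure of disagreement within the array pair, differences of expressed probe sets of the same gene had an SD of 0.34 over 5195 genes with several. Split by brightness into 3 equal classes of these genes, it was 0.43 in the dimmest, 0.33 in the middle and 0.26 in the brightest. Against the SD of its own class, the difference was 2.99 times as large for Per2, 2.68 times for Arntl, 1.89 times for Npas2 and 1.09 times for Nr1d2, and it was smaller than the SD for the other 6 genes. This SD covers disagreement between probe sets of a gene on these arrays, whatever its source, and not the spread between animals.

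**Figure D3:**
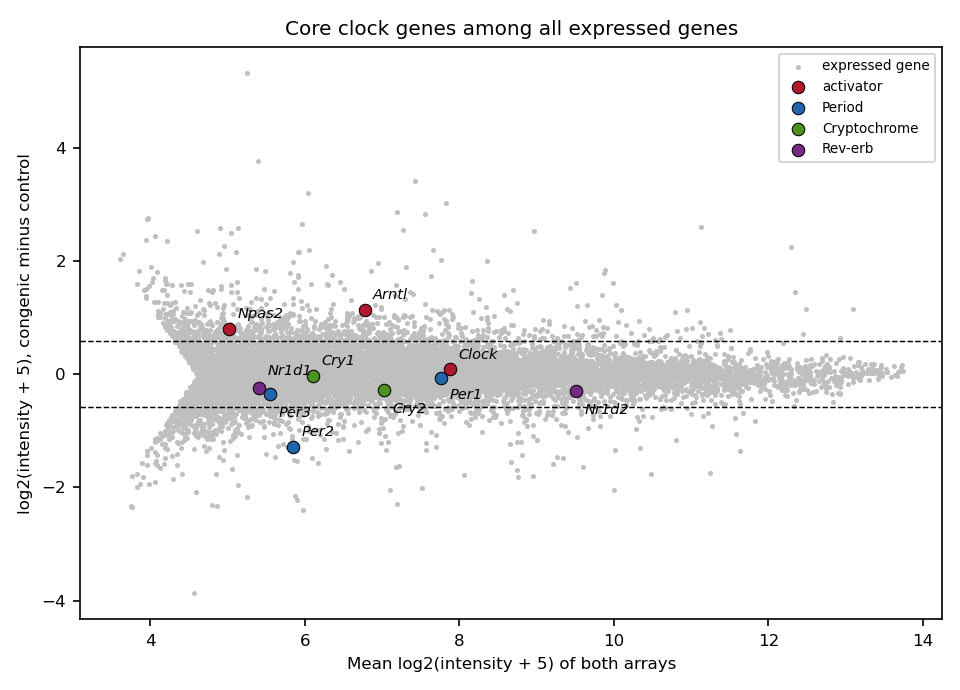
Difference of log2(intensity + 5), congenic minus control, against the mean of both arrays for 12614 expressed genes (grey) with the 10 core clock genes coloured by role. Arntl (1.14) and Npas2 (0.81) lie above the upper 1.5-fold line and Per2 (-1.28) below the lower one, while the other 7 lie between the lines.

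Genes around the loop were described by 3 lists of 43 genes, of which 40 were matched to a probe set of their own and 38 were expressed. By brightest probe set, none of the 38 was higher by 1.5-fold or more and 5 were lower, where 7.47% of all expressed genes were higher and 5.23% lower. Auxiliary transcription factors, which take their rhythm from the loop or feed back on it, held 4 of these 5. Of their 8 expressed genes 7 were lower at any size, while 56.1% of all expressed genes were higher, and their median was -0.53 against 0.04. The other 3 of the 43 were not analysed here.

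Ciart, a repressor of the activator pair that is itself an E-box target, read 29.97 in congenic and 80.3 in control liver (-1.29). Bhlhe40, which encodes the E-box repressor DEC1, read 496 against 1080.0 (-1.12). Dbp, a PAR-domain activator and an established E-box target, read 222 against 378 (-0.75), and its other probe set was also lower (-0.56). All 3 were lower in congenic liver by more than 1.5-fold. Tef, a second PAR-domain factor, read 267 against 451 (-0.75), although 2 of its 3 probe sets were slightly higher, up to 0.19.

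The other auxiliary factors lay within 1.5-fold or were dim. Hlf, the third PAR-domain factor, read 239 against 297 (-0.31), and Rora, an activator at the elements that REV-ERB occupies, read 523 against 626 (-0.25), with 9 probe sets between -0.95 and 0.68. Nfil3, which represses at D-boxes, was level at 206 against 209 (-0.02), and Bhlhe41, which encodes DEC2, was the only one of the 8 on the higher side, at 52.0 against 43.9 (0.22). Rorb (5.32 against 6.88) and the Arntl paralog Arntl2 (6.38 against 12.8) were below the 50th percentile on both arrays.

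By their brightest probe sets, enzymes that set the stability of clock proteins and co-regulators of transcription differed little, apart from Usp2. Further probe sets of some of these genes passed 1.5-fold in either direction, such as -1.18 for Tbl1xr1, -1.15 for Csnk1e, 0.91 for Csnk1a1 and 0.996 for Huwe1. Usp2, a deubiquitinase with strongly rhythmic expression in liver that acts on clock proteins, read 86.7 in congenic and 363 in control liver (-2.003), and its other probe set differed by -2.41. By brightest probe set, Usp2 was the only 1 of 16 expressed kinases, phosphatases, ligases and their partners past 1.5-fold. The list had a median of 0.03. The next lowest were Btrc, a ligase subunit that recognises phosphorylated PER (-0.20), and Prkaa1, a catalytic subunit of AMPK (-0.20). The highest were Fbxw7, a ligase subunit (0.29), Csnk1d, a kinase of PER proteins (0.18), and Fbxw11, the paralog of Btrc (0.17). Both probe sets of Fbxw7 were higher, and Prkaa1 had only 1. Those of the other 3 disagreed, with 2 of 5 lower for Csnk1d and 3 of 5 lower, down to -0.89, for Fbxw11. For Btrc 1 of 5 was higher.

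None of 14 expressed co-regulators passed 1.5-fold by its brightest probe set and their median was 0.06. They ranged from Cipc, an inhibitor of CLOCK (-0.35), Nampt, which makes the NAD+ precursor used by sirtuins (-0.35), and Ppargc1a, a coactivator of ROR (-0.14), up to the histone demethylase Kdm1a (0.38), the Mediator subunit Med1 (0.51) and the histone methyltransferase Kmt2a (0.53). All 3 probe sets of Nampt and of Cipc were on the lower side, and both of Kdm1a and of Kmt2a on the higher side. Those of Ppargc1a and Med1 disagreed, with 3 of 5 higher for Ppargc1a and 3 of 7 lower, down to -0.86, for Med1.

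**Figure D4:**
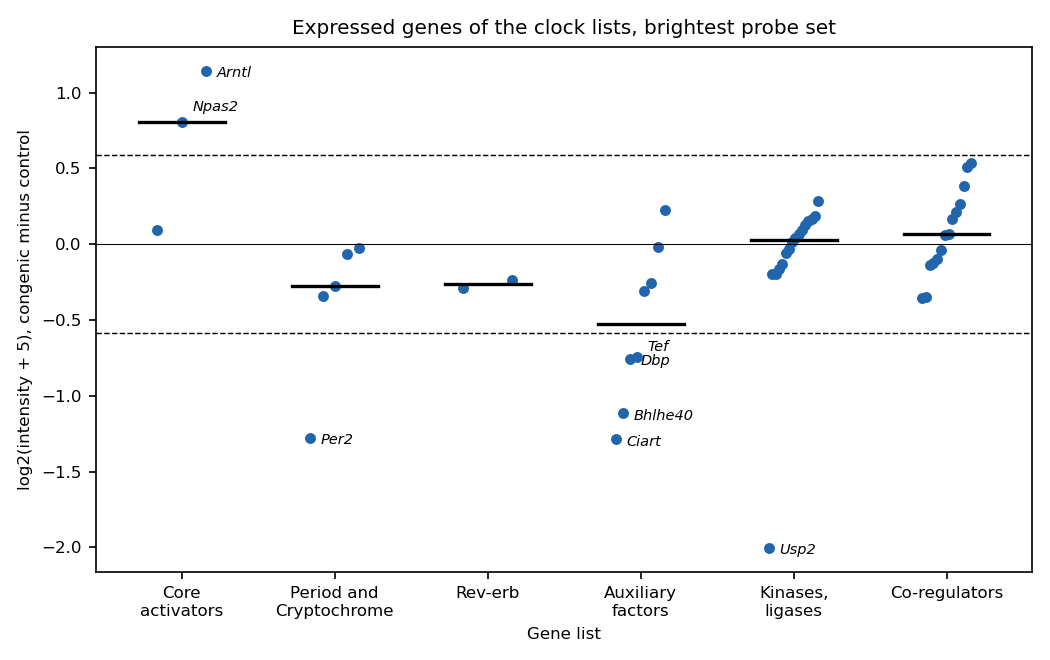
Difference of log2(intensity + 5), congenic minus control, for expressed genes of the core loop and the 3 lists around it, each by its brightest probe set. Bars are list medians and dashed lines mark 1.5-fold. Ciart, Bhlhe40, Dbp and Tef of the auxiliary factors and Usp2 of the enzymes lie below the lower line, and no gene outside the core lies above the upper one.

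Npas2 and Per2 are on chromosome 1, the chromosome of the Bglu3 locus, while the other 8 members are on chromosomes 2, 4, 5, 7, 10, 11 and 14. Among 732 expressed genes of chromosome 1, 9.84% were higher and 6.28% lower by 1.5-fold or more. Of the 5 expressed genes on each side of Npas2 in the gene order of GRCm38.p6, 2 were higher and 1 lower by that much, from Aff3 at -0.71 to Map4k4 at 0.79, with a median of 0.16. Of the same number around Per2, 1 was higher (Traf3ip1, 0.74) and none lower, with a median of -0.01. The difference of Per2 lay below that of all 10 neighbours, the lowest of which was Klhl30 at -0.40. Per2 ranked 82nd from the bottom of 12614 expressed genes, so almost any 10 genes would lie above it. This comparison therefore cannot tell its region from the rest of the genome. Whether either gene lies inside the donor segment cannot be told from the sources used here.

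The arrays were compared on cell content and RNA quality beside these values. Of 10 hepatocyte markers listed 9 were found, and all 9 were expressed and lay within 1.5-fold by their brightest probe sets. Their summed intensity was 76101 in congenic and 76226 in control liver, and albumin (Alb) read 14121 against 12910. A dimmer probe set of Hnf4a passed 1.5-fold at -0.59. Sums here cover every marker found, expressed or not, and counts past 1.5-fold stand against the 7.47% higher and 5.23% lower of all expressed genes. Of 8 expressed neutrophil markers 7 were higher (sum 4157 against 1266), and of 11 macrophage and Kupffer cell markers 8 were higher (30146 against 19400). Among the neutrophil markers, Camp, Ltf, Mpo and Prtn3 reached the 50th percentile only on the congenic array, where they were high. The filter therefore favoured their being counted as higher. All 8 expressed lymphocyte markers were higher, and the sum over the 10 found was 1260 against 345. Of the 2 dim ones, Cd79a was higher (1.12) and Cd3e lower, at 7.44 against 10.8 (-0.34). The probe sets of Ighm disagreed, with 7 higher and 4 lower. Of 8 stellate cell markers 4 were higher and none lower (7558 against 6274), and of 8 endothelial markers 1 was lower and none higher (3649 against 3311). Skeletal muscle, kidney and adrenal markers were mostly dim, with 2 expressed each and sums of 135 against 158, 116 against 99.5 and 71.1 against 78.9. By their brightest probe sets, only the adrenal Cyp11a1 among these markers was near the low value of 1 on an array. In bulk tissue, fewer cells of a type and less RNA per cell cannot be told apart, and the part of the immune markers in the clock values was not tested. The 3' to 5' ratio was 1.68 and 1.65 for actin and 1.25 and 1.23 for Gapdh on the congenic and control arrays.

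**Figure D5:**
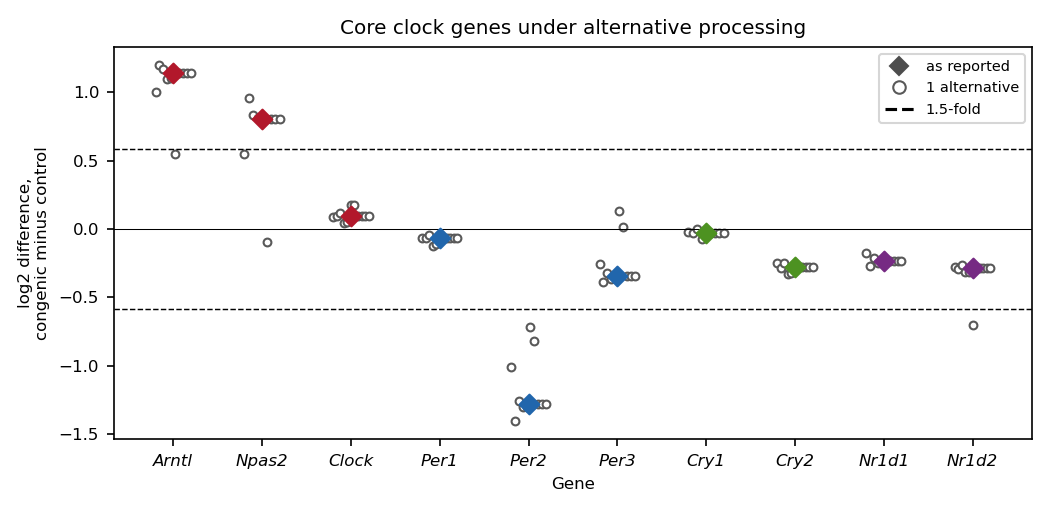
Difference of each core clock gene, congenic minus control on a log2 scale, as reported (diamond) and under up to 11 other ways of processing (circles, 1 each). Per2 lies below the lower 1.5-fold line in each setting that kept it. Arntl falls below the upper line at 0.55, and Npas2 to -0.09, when all probe sets of a gene are summarised by their median.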

How the data were processed

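Liver RNA (8 µg total RNA, biotin-labelled cRNA, per the labels' protocols) was read on 1 Affymetrix array per group. The authors deposited 1 linear intensity per probe set for 45101 probe sets, and the sources used here give neither the probe summary nor the scaling between arrays. Array medians were 19.3 (congenic) and 19.7 (control), so intensities were used as deposited. The number of arrays limits the precision. Control probe sets (64) were left out. Of the rest, 34945 had 1 symbol in the platform annotation, 932 several and 9160 none.

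Differences were computed with a pseudocount of 5 in Python 3.11.15 and pandas 2.3.3. A gene was represented by the probe set with the highest mean log2(intensity + 5), expressed at the 50th percentile. Genes past 1.5-fold were counted in place of a test. All member probe sets, all auxiliary factors and the 3 highest and 3 lowest genes of the other lists were named. Members, lists and rules were chosen with earlier results of these data known. The computation was tested on simulated data with planted differences larger than those of the members. That checks the code and not how reliable the 1.5-fold rule is for dim probe sets. Alternatives were a pseudocount of 20 or none, median centring, quantile normalization, loess, other probe set rules, other expression filters and a 2-fold rule.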

Additional observations from a re-analysis of the deposited data

How the results depend on the processing

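With a pseudocount of 20, 1 probe set was higher and 1 lower by 1.5-fold (4 and 4 as reported). Over all probe sets with 1 symbol the shares also fell, from 8.86% higher and 9.1% lower to 2.57% and 2.12%. In that setting 1 gene was higher (2 as reported), because Npas2 came to 0.55, against 4.34% of all expressed genes. When a gene was the median of all its probe sets, 0 genes were higher and 2 lower (2 and 1 as reported). Here Arntl came to 0.55, Npas2 to -0.09 and Nr1d2 to -0.70. Of all expressed genes, 6.01% were higher and 4.51% lower in that setting. Per3 came to 0.13 in that setting and to 0.02 as a mean of its expressed probe sets, against -0.34 by its brightest. With plain _at probe sets only, and with expression required on both arrays, 1 gene was higher, where 7.73% and 5.68% of all genes were. Arntl left the comparison in the first case and Npas2 in the second. At the 75th percentile, where 5 members remained, 1 gene was higher and 0 lower, against 5.18% and 2.85% of all genes. The 2-fold rule left 2 probe sets higher and 2 lower and 1 gene higher, against 2.13%, 2.26% and 1.91% over the whole array. Among expressed probe sets alone 2 were lower, against 6.05% of all expressed probe sets.

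The other counts were within 1.5 times those reported, and the median over members stayed below 0 under all 11 alternatives that give one. Of 115 probe set differences under 5 alternatives, 7 moved by more than 0.34 and no called one changed sign. The 7 belong to dim probe sets of Npas2, Per3 and Nr1d2, which the pseudocount governs. No paired analysis was possible because each group has 1 array. Leaving out an array leaves no comparison.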
